A study of Homo sapiens with 8 samples.

Results

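The mRNAs described here encode 10 factors that make microRNAs (miRNAs) or carry out silencing by them: DROSHA, DGCR8, XPO5, DICER1, TARBP2, AGO1, AGO2, AGO3, TNRC6A and TNRC6B. They were taken for their known roles and not for their values, though earlier results of these data were known by then. A probe belonged to them when its RefSeq accession carried one of these symbols, which gave 14 of the 42405 probes on the array, for 10 of 20249 genes with a probe. Of these 14 probes, 13 were bright enough to be tested, at least 1 for each of the 10 genes, among 18761 tested probes in all. The arrays were made from KYSE850, a human line of esophageal squamous cell carcinoma (ESCC). Cells given a control siRNA (4 arrays) were compared with cells in which a short interfering RNA was directed against KHSRP (4 arrays). The labels give neither the KHSRP siRNA used for each array nor whether the 4 samples of a group were separate cultures, so the p-values measure only the spread between these samples, which may be technical. All the cells were of 1 line, and the arrays measured mRNA, not protein and not mature miRNA. In RNA from a whole culture, fewer cells with an mRNA and less of it per cell cannot be told apart.

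A miRNA gene is first copied into a long primary transcript. In the nucleus, DROSHA, an RNase III enzyme, and its RNA-binding partner DGCR8 form the Microprocessor and cut out a hairpin, which exportin-5 (XPO5) carries to the cytoplasm. There the RNase III enzyme DICER1, with its partner TARBP2, removes the loop, and 1 strand is loaded into an Argonaute protein (AGO1, AGO2 or AGO3). TNRC6 proteins bind the Argonaute and bring in the enzymes that shorten and decap the target mRNA. KHSRP is an RNA-binding protein known to bind the terminal loop of some miRNA precursors and to act within both DROSHA and DICER1 complexes.

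The hairpins of the 3 miRNAs that the study followed show what these factors handle, and they are printed 5′ to 3′ as RefSeq gives them (GRCh38.p14), with the mature strand in capitals and the terminal loop between the arms. MIR21 lies at chr17:59841266-59841337 on the plus strand and MIR130B at chr22:21653304-21653385 on the plus strand. MIR301A lies at chr17:59151136-59151221 on the minus strand.
MIR21 hairpin: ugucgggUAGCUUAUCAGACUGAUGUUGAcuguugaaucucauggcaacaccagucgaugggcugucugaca
MIR130B hairpin: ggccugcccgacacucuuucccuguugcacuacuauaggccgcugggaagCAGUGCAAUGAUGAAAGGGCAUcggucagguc
MIR301A hairpin: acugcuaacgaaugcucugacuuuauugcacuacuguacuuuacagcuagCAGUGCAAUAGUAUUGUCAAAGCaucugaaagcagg

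In the mature strands the seed, bases 2 to 8, is in capitals. The seed pairs with target mRNAs. These strands are shown because DICER1 itself stands in the study's lists of predicted targets of all 3, lists that were drawn from genes higher on these same arrays. The seeds of miR-130b-3p and miR-301a-3p are the same, and that of miR-21-5p differs.
miR-21-5p: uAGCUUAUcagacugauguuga
miR-130b-3p: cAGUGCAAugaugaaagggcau
miR-301a-3p: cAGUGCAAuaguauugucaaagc

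A second set is shown because it lies inside a member gene. The Microprocessor is known to cut hairpins in the transcript of DGCR8 itself, so that the level of this mRNA is linked to the activity of the complex it encodes. RefSeq places miR-3618 at chr22:20085797-20085818, miR-1306-5p at chr22:20086072-20086093 and miR-1306-3p at chr22:20086112-20086129, all on the plus strand within the DGCR8 gene. The seeds are again in capitals.
miR-3618: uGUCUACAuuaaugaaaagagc
miR-1306-5p: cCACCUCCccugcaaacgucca
miR-1306-3p: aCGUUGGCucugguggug

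The targeted mRNA was checked before any other. Levels are log2 signals relative to the 75th percentile of all probes on the array, so 0 means a signal equal to it, and a level is compared between arrays for 1 probe and never between probes. The bright KHSRP probe, A_23_P16157, read 6.03, 5.81, 6.39 and 6.08 with control siRNA and 2.52, 2.58, 2.88 and 2.85 with KHSRP siRNA. The knockdown arrays were far below every control, and 9.66% of the control level was left. The two-sided exact permutation p was 0.0286, which is also the smallest that 4 arrays against 4 can give. The dim probe A_24_P134235 was well above background on 4 control arrays and 0 knockdown arrays and was at least 5.83-fold lower (limma, adjusted p = 0.0147). Without control siRNA replicate 1 its adjusted p was 0.0549. Between 45.1% and 49.4% of probes were well above background on an array, and 0 spots were saturated. The number of arrays limits the precision. All 8 squamous markers looked at, among them KRT5, KRT14 and TP63, were well above background on all 8 arrays. KRT5 ranged from 3.11 to 5.84 among controls and from 2.92 to 5.98 among knockdown arrays, so that arrays of 1 group differed widely in this keratin. Of 7 markers of blood, endothelium and fibroblasts, PECAM1, VWF and COL3A1 were well above background on 0 arrays, PTPRC on 4 and CD3E on 5, and these 5 were not tested. CD14 and COL1A1 were well above background on all 8 arrays, and neither they nor any squamous marker passed the test. CDH1 did not overlap between the groups, at -0.67 to -0.022 in controls and 0.045 to 0.53 after knockdown (limma adjusted p = 0.135). The other squamous markers overlapped. Over all tested probes 14.8% did not overlap. The part of these markers in the results below was not tested.

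None of the 10 mRNAs passed the test after KHSRP was silenced. In limma, with p-values adjusted by Benjamini-Hochberg across the whole table, 0 of the 13 member probes had an adjusted p under 0.05, and the share was 5.54% over all tested probes. The changes were small. They ran from -0.43 for an XPO5 probe to 0.61 for DICER1 on the log2 scale, and DICER1 was the 1 gene whose brightest probe differed by over 1.5-fold. Of the 13 probes, 9 were higher and 4 lower with KHSRP siRNA, with a median change of 0.24 against 0.012 for all tested probes. An unadjusted p under 0.05 was found for 6 of 13 (46.2%), where all tested probes gave 19.6%, and the methods' t-test gave 7 unadjusted and 1 adjusted, where all tested probes gave 19.8% and 5.76%. The groups did not overlap at 5 of 13 probes (38.5%), namely DICER1, TNRC6A and TARBP2 above the controls and 1 probe each of XPO5 and AGO3 below them. Over all tested probes this share was 14.8%.

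**Figure D1:**
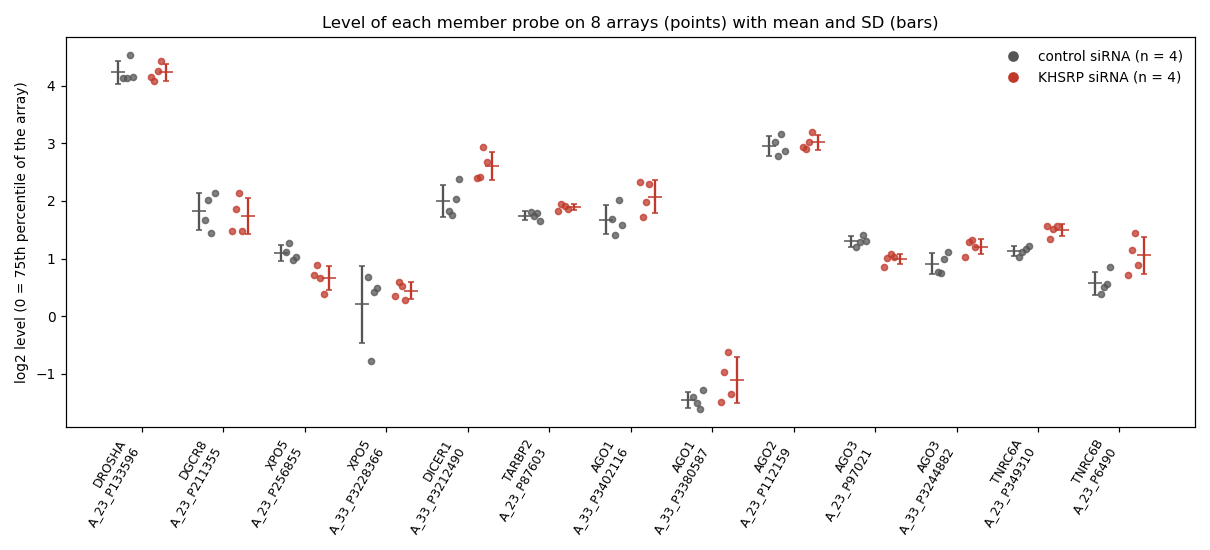
Log2 level of each of the 13 tested probes on each array (y axis, 0 being the 75th percentile of the array), with control siRNA in grey and KHSRP siRNA in red. Points are single arrays in replicate order and bars are the mean and SD (n = 4 each). DICER1 and TNRC6A lie higher and the XPO5 probe A_23_P256855 and the AGO3 probe A_23_P97021 lie lower on all 4 knockdown arrays.

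How firmly these differences can be read depended on how the arrays were paired. Arrays that share a number in the series matrix deviated together from their group means, with correlations from 0.43 to 0.84 over all tested probes. Some arrays of different number also deviated together. In series matrix numbers, control 1 with knockdown 3 gave 0.41 and control 2 with knockdown 4 gave 0.42. Control 3 with knockdown 1 and control 4 with knockdown 2 each gave 0.38. Odd-numbered and even-numbered arrays thus formed 2 sets, and control-knockdown correlations between the sets were negative. Whether the numbers mark pairs of samples is not known. With the series matrix number as a block, 7 of the 13 member probes (53.8%) for 6 of the 10 genes passed the threshold, against 30.1% of all tested probes. Of these 7, 5 were higher and 2 lower, where 14.8% of all probes passed as higher and 15.3% as lower. The block was chosen after the data were seen, and the scanner files number knockdown arrays 3 and 4 the other way round. The value with the block is therefore given beside a result where it changes the call. The fold changes are the same in both fits, and only the error differed. The median SE of the member probes was 0.139 without it and 0.072 with it.

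**Figure D2:**
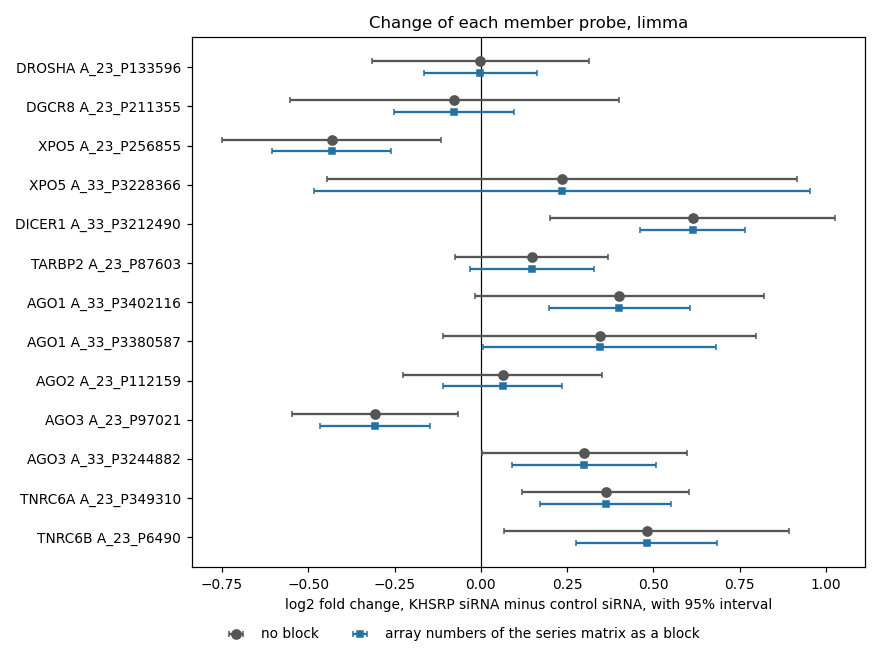
Log2 fold change of each tested probe, KHSRP siRNA minus control siRNA (x axis), with its 95% interval from limma without a block (grey circles) and with the array numbers of the series matrix as a block (blue squares). Without the block DICER1 was higher by 0.61 (interval 0.20 to 1.02) and DROSHA, DGCR8 and AGO2 lay near 0.

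The nuclear step came first. DROSHA (A_23_P133596) read 4.13, 4.12, 4.53 and 4.15 on the control arrays and 4.15, 4.09, 4.25 and 4.44 on the knockdown arrays. The groups lay on top of each other, with 1 control array standing above the other three. The log2 change was -0.0011 (95% interval -0.32 to 0.31, limma adjusted p = 0.998), and its sign turned with the scaling, to 0.024 under quantile normalization. DGCR8 (A_23_P211355), the partner of DROSHA, read 1.66, 2.02, 1.45 and 2.14 against 1.48, 1.87, 2.13 and 1.48. Arrays of the same group differed by more than the groups did, and the change was -0.077 (95% interval -0.55 to 0.40, limma adjusted p = 0.908). Within the pairs numbered as in the series matrix, DGCR8 differed by only -0.18, -0.16, 0.028 and -0.0025. The wide spread of this mRNA was not particular to pairs. In those numbers, odd-numbered arrays of both groups read 1.45 to 1.66 and even-numbered arrays 1.87 to 2.14. With the block its interval narrowed to -0.25 to 0.096.

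Export was read by 3 probes of XPO5, of which 2 were tested. XPO5 at A_23_P256855 read 1.11, 1.28, 0.97 and 1.03 on the control arrays and 0.72, 0.90, 0.66 and 0.38 on the knockdown arrays. Every knockdown array was below every control. The log2 change was -0.43 (SE 0.14, limma adjusted p = 0.121), 1.35-fold lower, and it was -0.39 on one slide and -0.48 on the other. With the block the adjusted p was 0.00938. A second XPO5 probe, A_33_P3228366, read 0.69, -0.77, 0.42 and 0.49 against 0.35, 0.60, 0.53 and 0.28. The groups overlapped, with the second control array far below the rest, and the change was 0.24 (SE 0.30, limma adjusted p = 0.765), or -0.091 without control siRNA replicate 2. The third probe, A_33_P3228375, was well above background on 1 array of each group and was not tested.

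The enzyme of the cytoplasmic cut showed the largest difference among the members. DICER1 (A_33_P3212490) read 1.82, 1.75, 2.03 and 2.37 with control siRNA and 2.41, 2.42, 2.93 and 2.67 with KHSRP siRNA. All 4 knockdown arrays were above all 4 controls, though the lowest of them exceeded the highest control by little. The means were 1.99 ± 0.28 and 2.61 ± 0.25 (SD, n = 4 each), and the log2 change was 0.61 (SE 0.18, 95% interval 0.20 to 1.02), 1.53-fold higher. Of all tested probes, 11.1% differed by over 1.5-fold in either direction. The adjusted p was 0.0931 in limma without a block. Within slides the change was 0.63 and 0.60, and with the slide as a block the adjusted p was 0.0269. Paired by the series matrix numbers, the differences were 0.59, 0.68, 0.64 and 0.56, with an SD of 0.053. The limma adjusted p with that block was 0.00289. This pairing was chosen after the data were seen, so the closeness of the 4 differences depends on it. With the scanner-file numbers as a block the limma adjusted p was 0.133. The study listed DICER1 among predicted miRNA targets taken from genes higher on these arrays, so its direction is not independent evidence for that list. TARBP2 (A_23_P87603), the partner of DICER1, read 1.81, 1.73, 1.80 and 1.64 against 1.83, 1.95, 1.92 and 1.87. The knockdown arrays lay just above the controls, by 0.15 (95% interval -0.076 to 0.37, limma adjusted p = 0.484), and TARBP2 did not pass with the block either (adjusted p = 0.180).

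**Figure D3:**
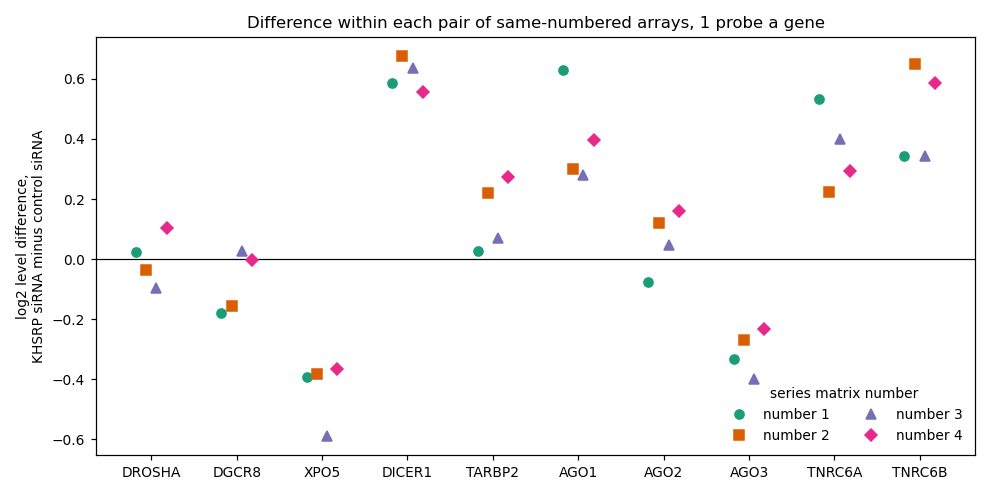
Difference in log2 level within each pair of arrays that share a number in the series matrix, KHSRP siRNA minus control siRNA (y axis), for the brightest tested probe of each of the 10 genes. Symbols mark the 4 pairs. The 4 DICER1 differences lie between 0.56 and 0.68, all 4 of XPO5 and AGO3 lie below 0, and those of DROSHA and DGCR8 lie around 0.

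The Argonautes, which hold the miRNA on its target, differed among themselves. AGO2, the member of the family able to cut its target, was the one with the smallest change (A_23_P112159). Its levels ran from 2.78 to 3.15 in controls and from 2.90 to 3.20 after knockdown, with a change of 0.064 (95% interval -0.23 to 0.35, limma adjusted p = 0.868), and under median scaling this turned to -0.010. AGO1 at A_33_P3402116 read 1.69, 1.41, 2.01 and 1.58 against 2.32, 1.71, 1.97 and 2.29. The groups overlapped, and the change was 0.40 (SE 0.18, limma adjusted p = 0.278), with an adjusted p of 0.0185 under the block. The other AGO1 probe, A_33_P3380587, differed by 0.34 (SE 0.20, limma adjusted p = 0.404) and did not pass with the block (adjusted p = 0.110).

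AGO3 gave opposite signs at its 2 probes. A_23_P97021 read 1.19, 1.29, 1.42 and 1.30 on the control arrays and 0.86, 1.02, 1.07 and 1.02 on the knockdown arrays. The knockdown arrays were all lower, by -0.31 on the log2 scale (SE 0.10, limma adjusted p = 0.142). A_33_P3244882 read 0.77, 0.75, 0.996 and 1.12 against 1.02, 1.29, 1.32 and 1.20. There 3 of the 4 knockdown arrays were above every control and 1 was not, with a change of 0.30 (SE 0.13, limma adjusted p = 0.251). With the block both passed, 1 as lower (adjusted p = 0.0192) and 1 as higher (adjusted p = 0.0456). A mean of both probes would give AGO3 a change of -0.0038.

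The disagreement between probes was tested on its own. The difference between probes of 1 gene was taken on each array, where the scaling of the array cancels, and a two-sided exact permutation test compared the groups, with adjustment over the 3 pairs of probes. For AGO3, A_23_P97021 minus A_33_P3244882 gave 0.42, 0.54, 0.42 and 0.18 in controls and -0.16, -0.28, -0.25 and -0.18 after knockdown. Every knockdown array lay below every control in this difference. The shift was -0.61 (exact p = 0.0286, adjusted 0.0429). Any groups of 4 that do not overlap give this exact p, whatever the size of the shift. Among single probes, the groups did not overlap at 14.8% of all tested probes. The share among probe pairs of other genes was not computed, so whether such shifts are unusual on this array is not known. For XPO5, A_23_P256855 minus A_33_P3228366 shifted by -0.67, with the same exact p of 0.0286 (adjusted 0.0429). That size rested on control siRNA replicate 2, where the difference was 2.05 against 0.42 to 0.55 on the other controls, and without it the shift was -0.28. For AGO1 the difference between the groups was 0.057 (exact p = 0.914), with a wide spread in both groups. The files name 1 RefSeq accession for both probes of each gene, so they do not tell which isoforms each probe reads.

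**Figure D4:**
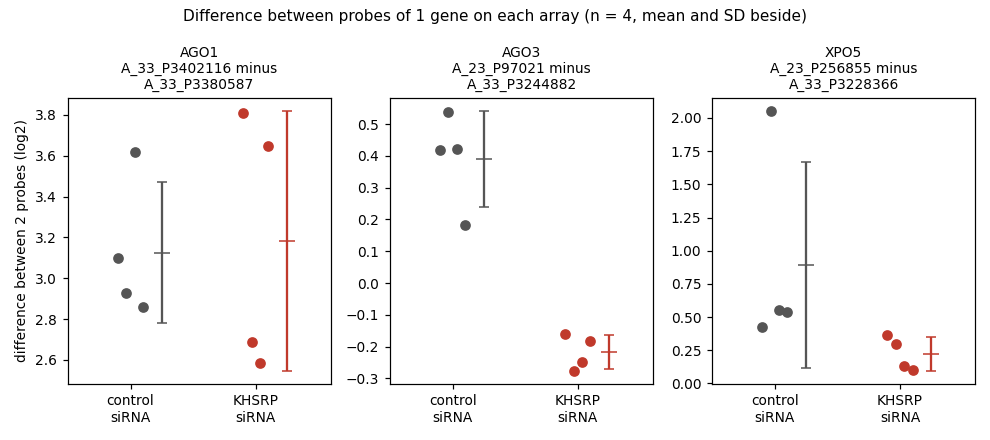
Difference in log2 level between 2 probes of AGO1, AGO3 and XPO5 on each array (y axis, a scale of its own in each panel), for 4 control siRNA arrays in grey and 4 KHSRP siRNA arrays in red, with the mean and SD beside the points. The AGO3 groups do not overlap, the XPO5 groups are separate with 1 control at 2.05, and the AGO1 groups overlap.

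The TNRC6 proteins link the Argonaute to the deadenylation machinery, and the mRNAs of 2 of them are members. TNRC6A (A_23_P349310) read 1.03, 1.11, 1.16 and 1.22 in controls and 1.56, 1.33, 1.51 and 1.56 after knockdown. All knockdown arrays were above all controls, and the values of each group lay close together. The change was 0.36 (SE 0.11, 1.29-fold, limma adjusted p = 0.0928), with 0.38 and 0.35 within slides. The adjusted p was 0.0198 with the block and 0.0407 after normexp background correction. TNRC6B (A_23_P6490) read 0.38, 0.51, 0.55 and 0.86 against 0.72, 1.16, 1.44 and 0.90. It overlapped by 1 array, with a change of 0.48 (SE 0.18, limma adjusted p = 0.181, with the block 0.0112). Both families have a further member outside the 10 genes. The log2 difference was 0.13 for AGO4 (A_23_P23171, limma adjusted p = 0.783) and -0.073 for TNRC6C (A_33_P3302428, limma adjusted p = 0.885), and neither passed with the block.

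The likeness of profiles over the 8 arrays was described by the root mean square difference after each probe was centred on its own mean, among 15488 tested probes with a symbol. Nearest to DICER1 were CYRIA at 0.085 and FAM43A at 0.096. The nearest other member was TNRC6B at 0.17. The nearest of 15488 probes would mostly lie closer than the nearest of 9, so this does not set DICER1 apart from the members. DGCR8 had a closer neighbour in RBBP4, a histone-binding protein, at 0.027, and then JPH3 at 0.051. XPO5 at A_23_P256855 lay nearest to NSUN5 (0.051) and AGO3 at A_23_P97021 to CEP135 (0.038). Neighbours were not sought for the other tested probes of these genes. DROSHA and AGO2 were nearest to each other among the members, at 0.080.

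The wider pathway was read from 60 further genes in 3 lists by role, of which 55 could be tested with 1 probe each. Most of these were lower after knockdown, namely 42 of the 55 genes, and 13 were higher, with a median change of -0.12. Some lay near 0, such as DDX5 (-0.0086), RAN (-0.0071) and PTGES3 (0.0037), so their sign can turn with the scaling. These counts of direction were made under the main scaling only. The median of all 12125 tested genes was 0.006, so that among all of them more were higher than lower. In limma 7 passed as lower and 1 as higher, against 4.06% of all tested genes as lower and 2.14% as higher. With the block, 16 passed as lower and 4 as higher, against 17.1% and 15.9% of all tested genes. Without the filter on dim probes only PABPC1 and LIMD1 of these genes passed, and with the scanner-file numbers as a block only PABPC1 did.

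In the nuclear list, helpers of the Microprocessor and of primary transcripts, 16 of 17 tested genes were lower (median -0.14), and 3 passed at their brightest probe. SRSF3 and TARDBP did not pass there but each had 1 other probe that passed as lower. That of SRSF3 gave -0.44 (limma adjusted p = 0.0427). The 2 other TARDBP probes gave -0.61 and -0.49 (lowest limma adjusted p = 0.0407). SAFB2, a nuclear matrix protein that aids the processing of clustered miRNAs, fell by 0.93 (SE 0.19, adjusted p = 0.025 in limma). NCBP1, the large subunit of the nuclear cap-binding complex, fell by 0.56 (SE 0.11, adjusted p = 0.0246). HNRNPA1, an RNA-binding protein that recognizes the loop of some primary miRNAs, fell by 0.56 at A_32_P42197 (adjusted p = 0.0241). Its other tested probe gave -0.028 (adjusted p = 0.978), and the many near-identical copies of this gene make both readings uncertain. NCBP1 and HNRNPA1 passed in only 1 of the 8 fits that left out an array, the one without KHSRP siRNA replicate 3, and SAFB2 in 3 (without KHSRP siRNA replicate 2 or 3 or control siRNA replicate 3). HNRNPA1 also did not pass under median scaling, and SAFB2 did not under the methods' t-test (adjusted p = 0.0513).

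In the list for pre-miRNA processing and Argonaute loading, 11 of 18 tested genes were lower (median -0.035), and 1 passed. TENT2, a poly(A) polymerase that adds nucleotides to the ends of some miRNAs, fell by 0.72 (SE 0.13, 1.64-fold, limma adjusted p = 0.0164). It no longer passed without KHSRP siRNA replicate 1 or 2 or control siRNA replicate 2, with adjusted p from 0.0509 to 0.0579. The log2 difference was -0.79 for the HSP40 chaperone DNAJA2 (limma adjusted p = 0.0669) and 0.55 for TSNAX, a subunit of the nuclease C3PO (limma adjusted p = 0.130). The other tested TSNAX probe gave 0.057 (adjusted p = 0.850). With the block DNAJA2 (adjusted p = 0.0174) and TSNAX (adjusted p = 0.0165 at its first probe) passed.

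The list of silencing effectors, which also holds TNRC6C and proteins found with Argonautes, had 4 of the 8 genes that passed. In it 15 of 20 tested genes were lower (median -0.16). PABPC1, the cytoplasmic poly(A)-binding protein to which TNRC6 proteins bind, read 7.02, 6.98, 7.04 and 6.70 in controls and 5.50, 5.63, 5.76 and 5.56 after knockdown. The lowest control was far above the highest knockdown array. PABPC1 fell by 1.32 (SE 0.12, 2.50-fold, limma adjusted p = 0.00108), and it passed in all 21 alternatives run for it, though near-identical copies of this gene could add to the reading. LIMD1, a scaffold that joins Argonautes to the cap-binding complex, fell by 0.98 (SE 0.13, 1.97-fold, limma adjusted p = 0.00542). FMR1, an RNA-binding protein found with Argonautes, fell by 0.78 (SE 0.12, limma adjusted p = 0.00966), and its other tested probe gave -0.71 (adjusted p = 0.0692).

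DDX6, the helicase that promotes decapping, was the 1 gene of the wider lists that passed as higher without a block. It read 1.27, 1.40, 1.56 and 1.74 in controls and 1.93, 2.06, 2.20 and 2.23 after knockdown, with no overlap. The change was 0.61 (SE 0.14, 1.53-fold, limma adjusted p = 0.0386), and the other tested DDX6 probe gave 0.63 (adjusted p = 0.247). DDX6 passed in 1 of the 8 fits that left out an array, the one without control siRNA replicate 4, and not under median scaling. Like DICER1, DDX6 stands in the target lists drawn from genes higher on these arrays, and its direction is not independent evidence.

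**Figure D5:**
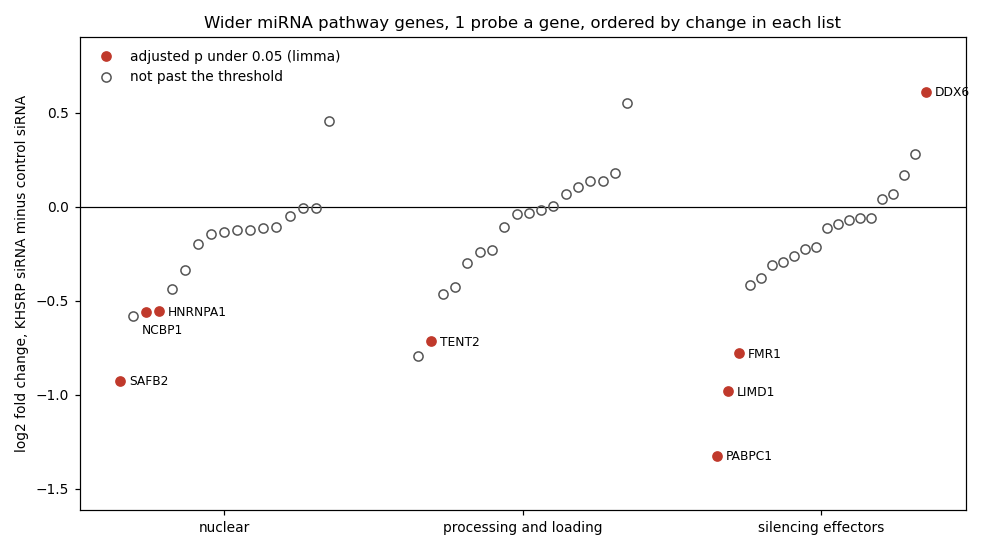
Log2 fold change, KHSRP siRNA minus control siRNA (y axis), of the 55 tested genes of the wider pathway in 3 lists by role (x axis), ordered by change within each list, with 1 probe a gene. Filled red points have a limma adjusted p under 0.05. PABPC1 at -1.32 lies lowest, DDX6 at 0.61 is the 1 filled point above 0, and 42 of the 55 lie below 0.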

How the data were processed

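RNA of KYSE850 cells was labelled with Cy3 and hybridised to 8 one-colour Agilent arrays, grouped by their labels. The deposited scanner values are linear fluorescence intensity, background-subtracted and detrended by Agilent Feature Extraction (11.5.1.1 per the file headers, 12.6 in the submitters' processing notes). The deposited series matrix holds log2 values that the authors made in GeneSpring and that are centred on each probe. The scanner's marks for outlier spots, saturated spots and spots well above background were also used, and these are neither levels nor scores. The median spot brightness and the local background, which are levels, were used for normexp only.

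Processed signals were log2-transformed without control and outlier spots, averaged per probe and set relative to the 75th percentile of each array. Tested probes were those for which a share of 0.5 or more of the spots stood well above background on all 4 arrays of either group. Symbols came from RefSeq accessions (GRCh38.p14). The brightest tested probe stood for a gene. The group difference was fitted without a block by lmFit and eBayes of limma 3.58.1 (R 4.3.3). The two-sided p-values were adjusted by Benjamini-Hochberg over every tested probe, with a threshold of 0.05. Other steps used Python 3.11.15. The fit was tested on simulated data.

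The scanner-file numbers gave correlations between same-numbered arrays from -0.67 to 0.52. The series matrix holds the values of KHSRP siRNA arrays 3 and 4 under each other's number, and which numbering is right is not known. With its numbers every pair correlated at 0.43 or more, and some arrays of different number at 0.38 to 0.42. Replicates 1 and 2 of both groups were on 1 slide and replicates 3 and 4 on another. In all, 22 alternatives in scaling, background, filter, block, variance, test, probe choice and arrays left out were run. Normexp used the median spot brightness.

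The members and lists were chosen with earlier results of these data known. The text names every member and KHSRP probe, AGO4 and TNRC6C, up to 5 called genes a list by size (the lowest p up to 3 where fewer were called), and the 2 nearest profiles of each gene, of which some are printed.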

Additional observations from a re-analysis of the deposited data

Results flagged for a closer look

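In 4 of 58 groups of 4 arrays examined (member, KHSRP and named pathway probes), a single array was set apart from the rest by Dixon's test at the 95% level. Chance gives this in about 1 in 20 groups. DROSHA (A_23_P133596) was high on control siRNA replicate 3, at 4.53 against 4.15 for the nearest control. The untested XPO5 probe A_33_P3228375 was high on KHSRP siRNA replicate 1, at -2.52 against -3.12. The dim KHSRP probe A_24_P134235 was low on control siRNA replicate 2, at -1.86 against -1.10. NCBP1 (A_33_P3299854) was low on KHSRP siRNA replicate 1, at 0.45 against 0.70.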

How the results depend on the processing

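Pairing the arrays by their series matrix numbers, as a replicate block chosen after the data were seen, called 7 member probes, 6 member genes, 20 genes of the wider lists and 5644 probes in all, against 0, 0, 8 and 1039 without a block. The replicate block by the scanner-file numbers called 0 member probes, 1 wider gene and 156 probes in all. With the slide as a block, 1 member probe and 1 member gene passed (DICER1), and so did 1 under normexp and 1 under the adjusted t-test (TNRC6A). Without the filter on dim probes 2 wider genes and 319 probes passed, and median scaling called 570 probes. Leaving out 1 array called 3 to 8 wider genes and 489 to 766 probes, fewest for the wider genes without KHSRP siRNA replicate 1 or control siRNA replicate 2, and 0 member probes in all 8 fits. The shift between the XPO5 probes was -0.41 under normexp (exact permutation p = 0.0571). Causes of these moves were not tested, except that fits without an array rest on fewer samples.

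Signs turned where changes were near 0. AGO2 was -0.010 under median scaling. DROSHA was 0.019 with the 75th percentile of detected probes, 0.0080 with array weights, 0.041 under normexp and 0.024 under quantile normalization. Leaving out 1 array gave -0.069 to 0.099 for DROSHA, positive without KHSRP siRNA replicate 1 or 2 or control siRNA replicate 3. It gave -0.21 to 0.029 for DGCR8, positive without KHSRP siRNA replicate 1 or 4 or control siRNA replicate 4. XPO5 A_33_P3228366 ranged from -0.091, without control siRNA replicate 2, to 0.40. Over all alternatives the adjusted p ran from 0.00289 to 0.297 for DICER1, from 0.0198 to 0.398 for TNRC6A, from 0.0112 to 0.475 for TNRC6B and from 0.0185 to 0.624 for AGO1 A_33_P3402116. For AGO3 A_23_P97021 (0.0192 to 0.993) and XPO5 A_23_P256855 (0.00938 to 0.838) the highest came from the mean of all probes of the gene. Dim probes lie nearer to background and may be measured less well, which was not tested. The dim AGO4 probe had an SE of 0.18, and the median SE of all tested probes was also 0.18. No scaling moved the median of all tested probes by more than 0.074.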
